A study of Homo sapiens with 15 samples.

Results

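Thymoquinone (TQ) at 40 µM was set against untreated control in HCT116 cells, over all 730 endogenous genes of a 770-gene cancer pathway panel. The comparison uses 6 of the 15 samples of the series, the 3 titled for TQ and the 3 titled as control. HCT116 is a human colorectal cancer line, and all samples came from this single line. TQ cells were exposed to 40 µM for 24 h, and control cells were left untreated for the same 24 h. The compounds were dissolved in DMSO, and whether control cells received that solvent is not stated. Every group has 3 samples, described as biological replicates, and nothing says how far their cultures were separate, so the p-values measure only the spread between these samples. Of the other treatments of the series, 5-fluorouracil (5-FU) at 15 µM for 24 h is used here, as another drug measured on the same cartridge as TQ.

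TQ is a quinone from the seed oil of black cumin. Quinones can bind the thiol groups of proteins and pass electrons to oxygen, and cells meet damaged protein with chaperones that the heat shock factors switch on. The same kinds of stress reach the MAP kinases, which drive the transcription factor AP-1 (FOS and JUN family proteins), and p53, which drives genes of growth arrest and cell death.

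The measurement is an nCounter count, in which reporter-labelled probes are hybridized to total RNA and tallied one molecule at a time. Each sample's counts were scaled to the geometric mean of the 40 housekeeping genes, and the results are called scaled counts. A gene was called higher or lower where edgeR's quasi-likelihood test gave a p that, adjusted by Benjamini-Hochberg over the 730 genes, did not exceed 0.05, and the fold change was at least 1.5, and rises and falls below are calls of this kind. Endogenous totals were 220040 to 258006 counts in control and 135017 to 513114 in TQ, where TQ replicate 2 was the deepest sample. A gene counts as above background in a sample where its count exceeds the mean of the 8 negative probes by 2 SD, and a gene is described as dim where neither all 3 control nor all 3 TQ samples are above background. All 7 epithelial markers on the panel, CDH1, EGFR and MET among them, were above background in all 3 control samples. Of 5 fibroblast and endothelial markers 4 were above background in no control or TQ sample, and COL1A1 in 1 control and 3 TQ samples. Of the leukocyte markers described here, CSF1R, IL2RA and GZMB were above background in no such sample, and CSF3R in 1 sample of each group. All TQ samples and control replicate 1 ran on the same cartridge, and control replicates 2 and 3 ran on another, where they differed from control replicate 1 by 1.5-fold or more in 220 genes.

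Relative to the housekeeping genes, more genes were lower than higher with TQ, a balance that TMM turned around. Of the 730 genes, 25 (3.42%) rose and 158 (21.6%) fell, with log2 fold changes up to 3.64, for the chaperone HSPA1A, and down to -3.30, for LRP2, a receptor gene near background. The 3 TQ samples lay wholly above the 3 control samples in 45 genes (6.16%) and wholly below them in 288 (39.5%), and 23 of the 25 risen and 132 of the 158 fallen genes were among these. Over all 730 genes the log2 fold change had a median of -0.47, and TMM normalization, which centres the bulk of the genes, put it at -0.02 and gave 79 genes higher (10.8%) and 44 lower (6.03%). Because RNA was taken from whole cultures, less transcript in each cell and fewer cells with the transcript cannot be told apart. All 25 risen genes were also called higher with TMM, and 44 of the 158 fallen genes were also called lower. The count of fallen genes was 62 without TQ replicate 2, the deepest sample, and 82 without control replicate 3.

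**Figure D1:**
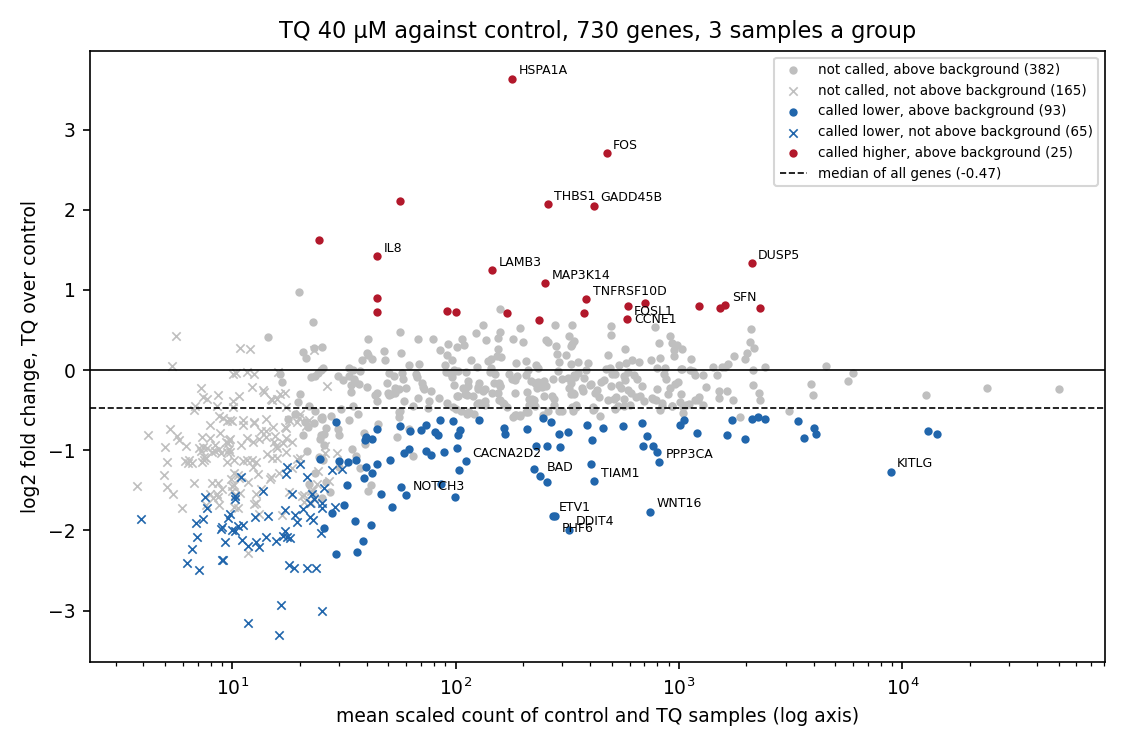
Each point is 1 of 730 genes, with the mean scaled count of the 6 samples on a log axis and the log2 fold change of TQ over control, and crosses mark the dim genes. The 25 called higher stand above 0 as dots, while 65 of the 158 called lower are crosses at the left, and the dashed line marks the median of -0.47.

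Many of the lower genes were near the background of the assay. Of the 158, 40 were above background in 0 control samples and 91 in all 3, while all 25 risen genes were above background in all 3 TQ samples. The mean of the negative probes, scaled in the same way, was 11.7, 18.1 and 20.6 in control replicates 1 to 3 and 7.65, 3.55 and 7.25 in TQ replicates 1 to 3. This background was thus lower in TQ, and its part in the falls of dim genes was not tested. With the mean of the negative probes subtracted before the fit, 35 genes were called higher (4.79%) and 100 lower (13.7%). A block for cartridge, which sets TQ against control replicate 1 alone, left 13 genes higher (1.78%) and 26 lower (3.56%). The genes called the same way with housekeeping scaling, TMM and the cartridge block were 12 higher (1.64%) and 10 lower (1.37%). The 12 were HSPA1A, FOS, THBS1, GADD45B, IL8, DUSP5, LAMB3, MAP3K14, TNFRSF10D, SFN, CCNE1 and FOSL1, and the 10 were DDIT4, PHF6, ETV1, WNT16, NOTCH3, TIAM1, BAD, KITLG, PPP3CA and CACNA2D2. With TMM and the block together, 21 genes were higher (2.88%) and 5 lower (0.685%), and these took in all 12 on the higher side and, on the lower side, DDIT4, ETV1, WNT16, NOTCH3 and TIAM1.

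The largest rise was that of a chaperone. HSPA1A, the main stress-inducible HSP70 that refolds damaged protein, was at 27.7, 21.2 and 30.3 scaled counts in control replicates 1 to 3 and at 416, 253 and 329 in TQ replicates 1 to 3. The lowest TQ sample stood above every control sample by a wide margin, and the log2 fold change was 3.64 (SE 0.42, adjusted p = 2.24e-06), or 3.55 with the cartridge block. In control 1 of 3 samples was above background. HSPA1B is nearly identical in sequence, so its transcripts may share the probe. HSPA2, a relative of HSPA1A best known from the testis, was at 29.4, 16.6 and 16.8 in control and 120.0, 70.9 and 85.3 in TQ, without overlap (log2 fold change 2.11, adjusted p = 1.37e-04). Its call was lost with the cartridge block (1.61), where control replicate 1 was the highest control sample. HSPA6, an HSP70 that unstressed cells hardly make, was at 19.0, 10.6 and 6.72 in control, where 0 of 3 samples were above background, and at 26.9, 40.7 and 42.6 in TQ (1.62, adjusted p = 0.0173). It too was not called with the block (0.97), nor without TQ replicate 2 (1.54), control replicate 2 (1.53) or control replicate 3 (1.34). The small heat shock protein HSPB1 and the endoplasmic reticulum chaperone HSP90B1 did not pass the fold threshold, with log2 fold changes of 0.43 and 0.28, the former at -0.02 with the block. Thus 3 of the 5 chaperones on the panel were called, all of them higher, beside 3.42% of all genes called higher. Their median log2 fold change was 1.62 beside -0.47 for all genes. With TMM 5 of 5 were called higher, beside 10.8% of all genes.

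The heat shock factors are known to act on chaperone genes through heat shock elements. Promoters were searched for the genes of largest rise, and those of HSPA1A, FOS and HSPA2, which lead that order, are shown. That of THBS1, next in order, was searched and is not shown, and that of HSPA6 was added after its motif was seen. Each promoter shown is the RefSeq sequence of the 250 bases before the gene's start in GRCh38.p14, on the plus strand. Motifs found on either strand are in capitals.
HSPA1A, chr6:31815293-31815542: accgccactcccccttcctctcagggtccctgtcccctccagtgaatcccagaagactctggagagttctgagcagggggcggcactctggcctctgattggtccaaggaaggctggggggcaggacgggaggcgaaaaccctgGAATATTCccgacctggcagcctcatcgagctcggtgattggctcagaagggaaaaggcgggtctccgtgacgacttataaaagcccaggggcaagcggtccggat
HSPA6, chr1:161524290-161524539: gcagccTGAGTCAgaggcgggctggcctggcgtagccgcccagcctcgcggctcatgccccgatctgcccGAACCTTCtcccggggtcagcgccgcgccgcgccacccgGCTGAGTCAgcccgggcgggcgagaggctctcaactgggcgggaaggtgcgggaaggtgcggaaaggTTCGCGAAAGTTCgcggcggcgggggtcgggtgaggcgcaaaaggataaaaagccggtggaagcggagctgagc
HSPA2, chr14:64540491-64540740: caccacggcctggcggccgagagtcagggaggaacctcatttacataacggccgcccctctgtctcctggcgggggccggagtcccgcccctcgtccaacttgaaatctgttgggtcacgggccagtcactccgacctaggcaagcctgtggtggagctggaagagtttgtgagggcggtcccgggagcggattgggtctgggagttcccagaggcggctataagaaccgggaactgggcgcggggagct
FOS, chr14:75278578-75278827: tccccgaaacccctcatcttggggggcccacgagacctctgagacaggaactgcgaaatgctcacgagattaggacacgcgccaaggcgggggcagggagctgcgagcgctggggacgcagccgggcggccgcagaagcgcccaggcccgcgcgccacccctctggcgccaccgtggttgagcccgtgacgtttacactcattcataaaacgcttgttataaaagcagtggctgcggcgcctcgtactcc
A heat shock element of 2 units was searched as GAANNTTC or TTCNNGAA, and one of 3 units as the same with a further GAA or TTC unit in alternation 2 bases on, so that the longer motif holds the shorter. HSPA1A had a 2-unit element, GAATATTC, at positions -106 to -99 from the start. HSPA6 had a 3-unit element, TTCGCGAAAGTTC, at -74 to -62, with 2 of its 2-unit matches lying inside it and a further one at -180 to -173. Of 35116 promoters of this length, 0.441% held a 3-unit and 11.6% a 2-unit element. The capitals of HSPA6 also mark AP-1 sites, TGANTCA, at -244 to -238 and at -139 to -133, a motif held by 6.57% of promoters, and the second overlaps a match to the antioxidant response element core, TGACNNNGC, held by 10.9%. HSPA2, FOS and THBS1 held none of these, nor a cAMP response element (TGACGTCA, 1.65% of promoters) or a CArG box (1.16%), in this window. The promoters of GADD45B, LAMB3, MAP3K14 and SFN were searched as well, and of these only SFN held such a motif, an AP-1 site at -170 to -164. A match is only a match of letters, and no binding was measured.

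The stress sensors moved in both directions. GADD45B, which binds and activates an upstream kinase of p38 and JNK, was at 209, 135 and 141 scaled counts in control and 774, 585 and 662 in TQ, so that each TQ sample was above every control sample. Its log2 fold change was 2.05 (SE 0.17, adjusted p = 1.38e-08), or 1.67 with the cartridge block. DDIT3 (CHOP), the transcription factor of the unfolded protein response that favours cell death, rose from 1017, 1048 and 618 to 1719, 1622 and 1328, also without overlap, but by less (0.80, adjusted p = 0.0027), and was not called with the block (0.61). DDIT4 (REDD1), a stress-induced inhibitor of mTOR, went the other way, from 655, 493 and 398 to 142, 128 and 121. All 3 TQ samples of DDIT4 were under the lowest control sample, its log2 fold change was -1.99 (SE 0.21, adjusted p = 5.32e-07), and within the cartridge it was -2.34. GADD45A was at 0.54, short of the fold threshold. Of the 10 genes of the heat shock and stress list 5 rose and DDIT4 alone fell, beside 3.42% and 21.6% of all genes. The median was 0.67. TMM gave 8 higher and 1 lower, beside 10.8% and 6.03% of all genes.

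Among immediate-early genes, whose transcription starts within minutes of a signal without new protein, FOS stood out. It was at 133, 141 and 104 scaled counts in control and 749, 821 and 894 in TQ, and the groups were far apart relative to their spread (log2 fold change 2.70, SE 0.19, adjusted p = 2.63e-09, 2.63 with the block). FOSL1, another AP-1 subunit, rose from 424, 438 and 513 to 671, 681 and 789.6 (0.64, adjusted p = 0.00216), close to the fold threshold, and its call was lost without TQ replicate 3 (0.56). JUN, the usual partner of FOS, was at 43.2, 62.0 and 52.1 in control and 66.1, 59.2 and 59.7 in TQ, and was not called with housekeeping scaling (0.21), although it was called with TMM (0.69). MYC likewise had a log2 fold change of 0.51 (adjusted p = 0.00492), under the fold threshold, and was called higher with TMM (0.96). ID1, an inhibitor of differentiation factors, fell from 3061, 2679 and 3042 to 1870.4, 1882 and 1980.0 (-0.62), a call kept with the block (-0.68) and lost with TMM (-0.16) or without control replicate 1 (-0.58). The 10 genes of the list thus held 2 rises and 1 fall, beside 3.42% and 21.6% of all genes, with a median of 0.27. With TMM 6 were called, all higher, beside 10.8% of all genes called higher.

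**Figure D2:**
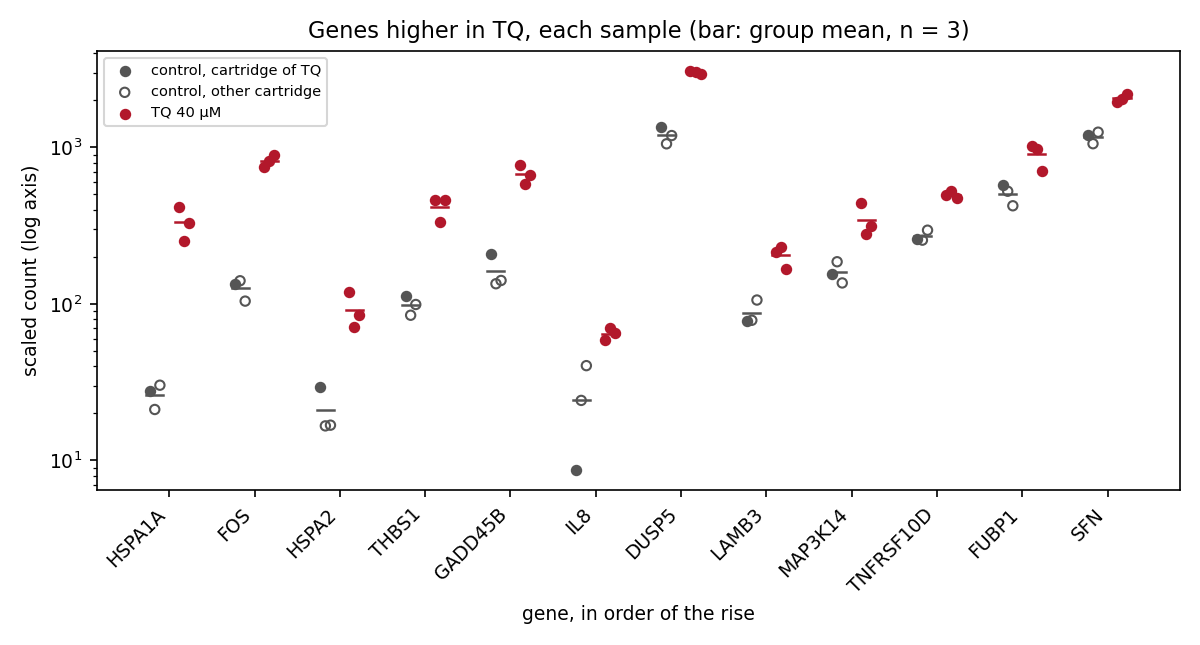
Scaled counts on a log axis of each control and TQ sample for the 12 genes with the largest rise among those with non-overlapping samples and a TQ mean of at least 50, with open points for the controls run on the other cartridge. In each gene the 3 TQ points stand above the 3 control points, from HSPA1A with a log2 fold change of 3.64 to SFN with 0.81.

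The feedback genes of the ERK pathway, which ERK induces and which then damp it, did not move as 1 group. DUSP5, a nuclear phosphatase of ERK, rose from 1358, 1054 and 1189.9 to 3087, 3045 and 2942 scaled counts, with a narrow spread in both groups (1.33, SE 0.11, adjusted p = 1.38e-08, 1.16 with the block). DUSP6, the cytoplasmic ERK phosphatase, fell from 2274, 1453 and 2533 to 1354, 1469 and 1248 (-0.62), where the groups overlapped, and was not called with TMM (-0.15) or without control replicate 1 (-0.55), control replicate 3 (-0.45) or TQ replicate 3 (-0.56). ETV1, an ETS family transcription factor, fell further, from 320.0, 392 and 561 to 127, 125 and 109, with every TQ sample under every control sample (-1.81, SE 0.19, adjusted p = 3.32e-07, -1.41 with the block). Of the 12 genes 1 rose and 3 fell, beside 3.42% and 21.6% of all genes. The third fall was that of DUSP4 (-0.68), and only ETV1 of the 3 was called lower with TMM.

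Upstream of these, the RAS to ERK cascade changed in few members. Of 26 genes 4 were called, all of them lower, beside 21.6% of all genes called lower. The median was -0.25 beside -0.47 for all genes, or 0.21 with TMM. MAPK3, the kinase ERK1, fell from 235, 411 and 464 to 135, 142 and 145 scaled counts, with control replicate 1 the control sample nearest to TQ (-1.39, adjusted p = 7.49e-05), and was not called with the cartridge block (-0.74). The others were SHC3 (-2.37), a dim adaptor gene, RASGRP2 (-1.21), an exchange factor of RAP1, and RASA4 (-1.13), a brake on RAS. Outside this cascade, TIAM1, which loads RAC1 with GTP, fell from 543, 472 and 797 to 239.9, 234 and 218 without overlap (-1.39, SE 0.17, adjusted p = 3.50e-06, -1.24 with the block). RAC1 itself fell by less (-0.69), a call lost with TMM and with the block. The JNK and p38 list of 14 genes, which takes in MAP3K14 of the NF-kB route described below, held 2 calls. These were MAP3K14 and MAPK8IP2, both higher with housekeeping scaling, beside 3.42% of all genes called higher. Both were also called higher with TMM. MAPK8IP2, a scaffold of JNK, went from 41.5, 25.7 and 31.9 to 61.2, 48.7 and 56.3 (0.72). It was not called with the block (0.39), nor in 5 of the 6 fits that left out 1 sample, at 0.57 to 0.83.

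MAP3K14 (NIK), the kinase of the non-canonical NF-kB route, rose from 156, 186 and 136 to 441, 279.9 and 314 scaled counts, without overlap (1.08, SE 0.19, adjusted p = 2.80e-04, 1.11 with the block). In the NF-kB and cytokine list 3 of 54 genes rose, beside 3.42% of all genes, and 6 fell, beside 21.6%. IL8, a chemokine that draws neutrophils, was at 8.65, 24.2 and 40.3 in control and 58.8, 70.3 and 64.8 in TQ (1.42, adjusted p = 0.00622), and 0 of 3 control samples were above background. Its control samples spread widely, and control replicate 1, on the cartridge of TQ, was the lowest of them, so that the value with the block was higher, at 2.91. The feedback inhibitor TNFAIP3 (A20) had 29.4, 18.1 and 42.0 in control and 78.3, 38.2 and 59.7 in TQ (0.90, adjusted p = 0.0381), with an overlap between the groups, and NFKBIZ, an inducible cofactor of NF-kB, had a log2 fold change of 0.74. Both were called with TMM and neither with the block, where the values were 0.90 and 0.62, and TNFAIP3 was called in 2 of the 6 fits that left out 1 sample, with values of 0.63 to 0.89 in the other 4. All but 2 of the 6 lower genes were dim. TMM gave 8 higher and 1 lower, and the block 1 higher and 0 lower.

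Genes that p53 can induce split in TQ. Of 16 on the panel 5 rose, SFN, THBS1, TNFRSF10A, TNFRSF10D and TNFAIP3, and 2 fell, CDKN1A and PCNA. Of all genes 3.42% rose and 21.6% fell. The median of the list was 0.26 beside -0.47 for all genes. SFN (14-3-3 sigma), which holds cells before mitosis, rose from 1205, 1055 and 1250.5 to 1944, 2027 and 2195 scaled counts, without overlap (0.81, SE 0.11, adjusted p = 1.07e-05, 0.77 with the block). CDKN1A (p21), the CDK inhibitor that is the best known p53 target, moved the opposite way, from 768, 896 and 1346 to 526, 536 and 496 (-0.95, adjusted p = 6.71e-04). The TQ values of CDKN1A lay close together and below all control samples, but neither TMM (-0.47) nor the block (-0.56) kept the call. MDM2, the p53 inhibitor, and BAX, a pore-forming death protein, were not called (0.22 and -0.45, or 0.67 and 0.01 with TMM, which called MDM2 higher). With TMM 9 of the 16 were called, all higher, beside 10.8% of all genes called higher.

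The TRAIL receptors rose in part. TNFRSF10D, a decoy receptor that binds the ligand without passing the death signal, went from 259, 255 and 296 to 495, 525 and 476 scaled counts (0.89, adjusted p = 1.40e-05, 0.95 with the block). TNFRSF10A, a receptor that does pass it, went from 126, 119 and 139 to 247, 208 and 181 (0.71) and was not called with the block. In the BCL2 family BAD, which opposes the survival proteins, fell from 244, 385 and 393 to 125, 137 and 147 without overlap (-1.32, SE 0.19, adjusted p = 3.29e-05, -0.83 with the block), as the one member called of 6. Over the 25 genes of the cell death list 2 rose and 2 fell, beside 3.42% and 21.6% of all genes. The second fall was that of the dim CASP12 (-1.80). The median was -0.24 beside -0.47 for all genes, or 0.23 with TMM.

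Most cell cycle genes were not called. Of 51 genes 2 rose and 6 fell, beside 3.42% and 21.6% of all genes. The median was -0.28 beside -0.47 for all genes, or 0.19 with TMM. The rises were G1 cyclins. CCND1, which starts the cycle with CDK4 and CDK6, went from 2288, 1388 and 1435 to 3014, 2844 and 2870.2 scaled counts (0.77, adjusted p = 8.00e-04), and CCNE1, which takes cells into S phase, from 353, 414 and 529 to 717, 752 and 776 (0.79, adjusted p = 1.62e-04). Neither overlapped between the groups, and CCNE1 alone was called with the block (1.09 against 0.35 for CCND1). On the other side, CDC25C, the phosphatase that starts mitosis, went from 208, 218 and 207 to 115, 115 and 136 (-0.79), and PCNA, the clamp of the replication fork, had -0.70. Both were called with the block and neither with TMM (-0.32 and -0.25). With TMM 9 genes of the list were higher and 1 lower, beside 10.8% and 6.03% of all genes. The CDK inhibitors CDKN1C (-0.97) and CDKN2D (-0.69) fell with CDKN1A and were likewise not called with TMM or the block.

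DNA repair genes showed 1 rise and 4 falls among 42, beside 3.42% and 21.6% of all genes. The median was -0.26 beside -0.47 for all genes, or 0.21 with TMM. PRKDC, the catalytic subunit of the DNA-dependent kinase that joins broken ends, went from 2383, 2552 and 2691 to 1391, 1356 and 1451 scaled counts (-0.86, adjusted p = 6.05e-05, -0.77 with the block). H2AFX, the histone variant that marks breaks, had -1.02, FANCF and BRIP1 of the Fanconi anaemia pathway -0.98 and -0.72, and FANCG rose (0.62). With TMM none of the 4 falls was called. It put 4 genes of the list higher, FANCG among them, beside 10.8% of all genes. The block kept PRKDC of the 5.

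Adhesion and matrix genes held 2 large rises, and the falls among them were not called with the cartridge block. THBS1, the matrix protein thrombospondin-1, rose from 112, 84.7 and 99.2 to 460.2, 332 and 462 scaled counts, far outside the spread of either group (2.07, SE 0.17, adjusted p = 1.84e-08, 1.87 with the block). LAMB3, a chain of the laminin that anchors epithelium to its basement membrane, rose from 77.8, 78.6 and 106 to 215, 232 and 167 (1.24, adjusted p = 4.24e-05, 1.41 with the block). LAMA3, the alpha chain of the same laminin, fell from 43.2, 30.2 and 33.6 to 22.0, 22.2 and 23.9 (-0.65), at low counts. It was not called with TMM (-0.15) or with the block, where the fold was larger (-0.93), nor in 5 of the 6 fits that left out 1 sample. CDH1 (E-cadherin), which joins epithelial cells, fell from 213, 229.8 and 491 to 137, 116 and 152 (-1.23, SE 0.23, adjusted p = 5.39e-04). Control replicate 3 stood well above the other controls, and CDH1 was called with TMM (-0.73) and not with the block (-0.69). Of 11 integrin subunits 8 fell. The 4 of them above background were ITGA2, ITGA3, ITGB4 and ITGB8, at -0.74, -0.62, -0.95 and -0.65, and none of these 4 was called with TMM or the block. Without control replicate 3, the values of ITGA2, ITGA3 and ITGB4 were -0.27, -0.39 and -0.57 and were not called. Over 47 genes 2 rose and 16 fell, beside 3.42% and 21.6% of all genes, with a median of -0.66. Of the 25 above background 8 fell, beside 93 of all 500 genes above background. TMM gave 3 higher and 5 lower with a median of -0.18. The block gave 2 higher and 0 lower with a median of -0.50.

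WNT pathway genes had a median of -1.06, the lowest of the lists described, and of -0.62 with TMM. With the block it was -0.68, above the -0.77 of the calcium and cAMP list, and with TMM and the block -0.34 against -0.42. Of 42 genes 18 fell, beside 21.6% of all genes, and 1, CCND1, rose. With TMM 9 were called lower and 3 higher, and with the block 2 lower and 0 higher. Of the 25 above background 11 fell, and their median was -0.64 beside -0.29 for all 500 genes above background. WNT16, a secreted WNT ligand, fell from 917, 1128 and 1397 to 286, 339.7 and 380.3 scaled counts, with every TQ sample far under the lowest control sample (-1.77, SE 0.15, adjusted p = 2.94e-08, -1.44 with the block). Of the 13 ligands 6 fell, and WNT16 and 2 others, WNT10A (-1.68) and WNT2B (-1.13), were above background. WNT10A was not called with the block (-1.57) or without TQ replicate 2 (-1.32). WNT2B was not called with TMM (-0.70) or the block (-0.52), nor in 4 of the 6 fits that left out 1 sample, at -1.05 to -0.71, the smallest fall being without TQ replicate 2. Receptors and secreted antagonists had 5 falls among 14, of which DKK4 (-2.29) alone was above background, and LRP2 had the largest fitted fall (-3.30) from 8.65, 33.3 and 45.4 to 4.90, 1.85 and 3.41, close to the negative probes.

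In the intracellular part of the pathway, GSK3B, the kinase that marks beta-catenin for destruction, went from 336, 605 and 733 to 228, 261 and 251 (-1.17, adjusted p = 6.94e-04). Control replicate 1 was the control sample nearest to TQ, and GSK3B was not called with the block (-0.43). CTNNB1, which encodes beta-catenin, went from 3876, 4198 and 4387 to 2659, 2639 and 2696 (-0.64, adjusted p = 2.54e-04) and was not called with TMM (-0.18) or the block (-0.54). TBL1XR1, a cofactor exchanger for beta-catenin and nuclear receptors, was the member of this set called with the block (-0.81, -0.66 with the block), and it was not called with TMM (-0.35). SOX17 (-1.93) and CREBBP (-1.54) also fell, neither of them called with the block. SOX17 was also not called without TQ replicate 2 (-1.33), control replicate 2 (-1.82) or control replicate 3 (-1.65). CREBBP was not called with TMM (-1.07), nor without TQ replicate 2 (-1.33), TQ replicate 3 (-1.39) or control replicate 3 (-1.36).

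**Figure D3:**
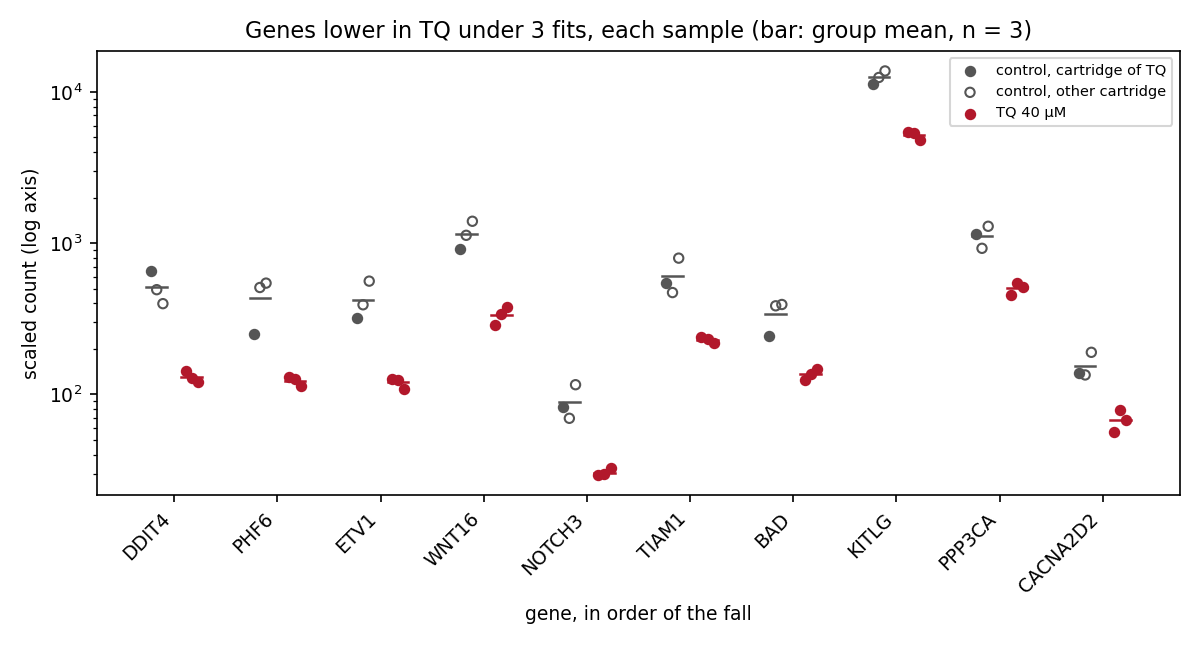
Scaled counts on a log axis of each control and TQ sample for the 10 genes called lower with housekeeping scaling, TMM and the cartridge block, with open points for the controls run on the other cartridge. In all 10 the TQ points stand below the control points. In PHF6, BAD, ETV1, WNT16 and KITLG the control of the TQ cartridge lies between the other controls and TQ.

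Of the 43 calcium and cAMP genes 13 were called, all of them lower, beside 21.6% of all genes called lower. The median was -0.73, or -0.27 with TMM, and with the block 2 were called lower. PPP3CA, a catalytic subunit of the phosphatase calcineurin, fell from 1152, 925 and 1294 to 453, 547 and 515 scaled counts without overlap (-1.14, SE 0.14, adjusted p = 4.82e-06, -1.18 with the block). Its relative PPP3CB had -0.63. PPP3CB was not called with TMM (-0.16) or the block (-0.66), nor without TQ replicate 2 (-0.47). CACNA2D2, a calcium channel subunit, fell from 138, 135 and 189.9 to 56.3, 78.9 and 68.2 (-1.13, adjusted p = 3.78e-04). The calcium channel gene CACNG6 had the largest fitted fall of the list (-2.93), with 1 of 3 control samples above background.

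Growth factors and their receptors showed 14 calls among 62 genes, all of them lower and 5 of them in genes above background, and the median was -0.79, or -0.30 with TMM. The share called lower was near the 21.6% of all genes, and with the block 2 were called lower. KITLG, the ligand of the receptor KIT, fell from 11297, 12469 and 13772 to 5410.4, 5353 and 4833 scaled counts, with a narrow spread in both groups (-1.27, SE 0.11, adjusted p = 2.94e-08, -1.12 with the block). ERBB2 (HER2), a receptor kinase of the EGF family, fell from 318, 352 and 487 to 208, 195 and 194 (-0.96, -0.68 with the block), but was not called with TMM (-0.48). In the PI3K core 5 of 24 genes were called, all lower, again near the 21.6% of all genes, and the median was -0.41, or 0.06 with TMM. With TMM 4 were called higher and 2 lower, BAD among the latter. Besides BAD the genes lower with housekeeping scaling included PIK3R5 (-1.34), a regulatory subunit of PI3-kinase gamma, the insulin receptor adaptor IRS1 (-0.95) and the transcription factor FOXO4 (-0.70). None of these 3 was called with TMM (-0.90, -0.47 and -0.20) or with the block (-1.11, -0.62 and -0.29). PIK3R5 was also not called without TQ replicate 2 (-0.95) or control replicate 3 (-1.22), and FOXO4 was called in 1 of the 6 fits that left out 1 sample.

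In the Notch list 4 of 18 genes were called, all lower, a share near that of all genes, with a median of -0.47, the same as over all genes. NOTCH3, a receptor, fell from 83.0, 69.5 and 116 to 29.4, 29.6 and 32.4 scaled counts, with all TQ samples close together and below the control samples (-1.55, SE 0.23, adjusted p = 5.22e-05, -1.45 with the block). The coactivator MAML2 had -1.88, and HDAC1, a corepressor subunit, had -0.59, close to the fold threshold. The call of HDAC1 was lost without TQ replicate 1 (-0.56), TQ replicate 2 (-0.58) or control replicate 1 (-0.49). TGF-beta family genes fell in 6 of 32, a share near the 21.6% of all genes. Of the 6, TGFB2 (-1.14) and ID1 were above background, and neither was called with TMM. TGFB2 was not called with the block (-0.44) and was called in 1 of the 6 fits that left out 1 sample.

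Among 46 chromatin and RNA genes 2 rose and 11 fell, shares near the 3.42% and 21.6% of all genes. The median was -0.30, or 0.16 with TMM. SETD2, which trimethylates histone H3 along transcribed genes, and the splicing factor SRSF2 rose (0.71 and 0.78), with 0.63 and 0.44 under the block, where neither was called. HDAC11 fell from 70.9, 163 and 210.1 to 41.6, 45.6 and 61.4 scaled counts (-1.59, adjusted p = 4.99e-04), and HDAC4, another histone deacetylase, had -1.43, neither of them called with the block (-0.53 and -0.68). The histone gene H3F3A went from 5187, 4733 and 5082 to 2921, 3137 and 3044 (-0.72, -0.77 with the block) and was not called with TMM (-0.27). PHF6, a chromatin reader outside the list, went from 251, 509 and 545 to 129.8, 126 and 114 without overlap (-1.82, SE 0.23, adjusted p = 8.13e-06), and control replicate 1 put it at -1.02 with the block. The stem cell marker PROM1 (CD133) was not called, at 157, 168 and 197 in control and 181, 122 and 113 in TQ (-0.37, or 0.10 with TMM). Of the 10 genes of the colon stemness list the dim GATA1 alone fell (-2.07).

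**Figure D4:**
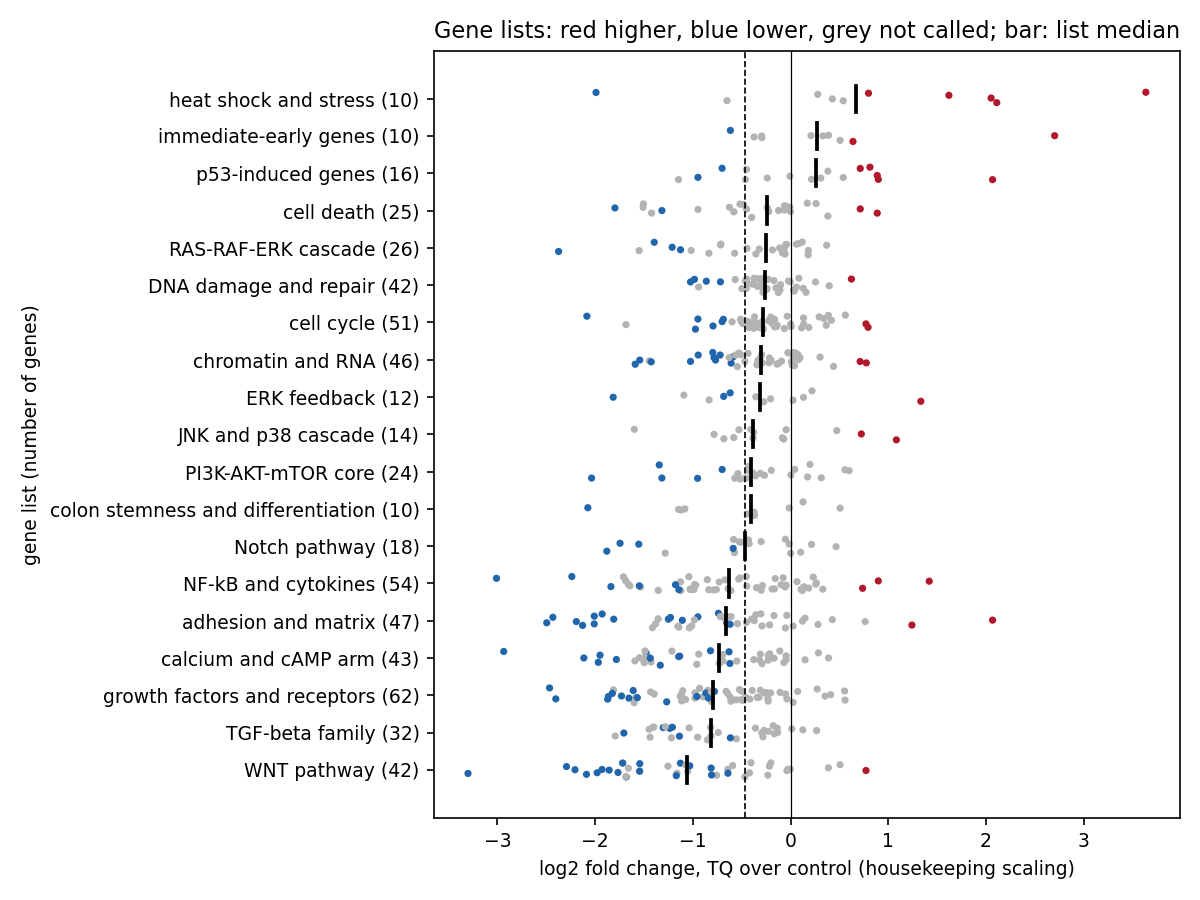
Each point is a gene of a list described in the text, placed by its log2 fold change of TQ over control with housekeeping scaling, and bars mark the list medians. The heat shock and stress list stands furthest right with a median of 0.67 and the WNT list furthest left with -1.06, while the dashed line marks the -0.47 of all 730 genes.

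TQ was then set against 5-FU, which blocks thymidylate synthase and is built into RNA and DNA, with 3 samples a group on a single cartridge and no control sample in the contrast. The doses, 40 µM of TQ and 15 µM of 5-FU, differ, so the test compares these treatments and not equal amounts. Of 730 genes 23 (3.15%) were higher and 105 (14.4%) lower in TQ than in 5-FU, with a median log2 difference of -0.34, and with TMM 60 (8.22%) and 70 (9.59%), with a median of -0.07. HSPA1A was at 26.9, 45.2 and 44.5 scaled counts in the 5-FU samples, far below the TQ values, with a log2 difference of 3.08 (adjusted p = 2.87e-06). FOS was at 80.6, 102 and 109.8 in 5-FU, also below every TQ sample (3.08, adjusted p = 3.85e-11). The differences for HSPA6, HSPA2 and GADD45B were 2.22, 1.56 and 1.44, and for each of them the TQ and 5-FU samples did not overlap. DDIT3 was at 488, 434 and 448 in 5-FU, below each control sample, and its log2 difference was 1.77.

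Other genes were lower in TQ than in 5-FU. SFN, which rose with TQ, was at 8029.8, 8137 and 8746 in 5-FU, so that it was lower in TQ than in 5-FU by a log2 difference of -2.01 (adjusted p = 7.48e-12). CDKN1A was at 3842, 4160.3 and 5625 in 5-FU and lower in TQ by -3.13 on the same scale (adjusted p = 3.05e-11). LAMB3 and LAMA3 were both lower in TQ than in 5-FU (-1.66 and -3.88), LAMB3 having risen and LAMA3 fallen against control. ITGB4 and ITGA3 were lower by -2.10 and -1.79. NOTCH3 was at 114, 112 and 132 in 5-FU, above its TQ samples (-1.97, adjusted p = 5.46e-07). DUSP5, at 4862, 4641 and 4819 in 5-FU, was lower in TQ by -0.66 although it rose against control. With TMM these directions held and each gene named here was called, except DUSP5, which was not.

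**Figure D5:**
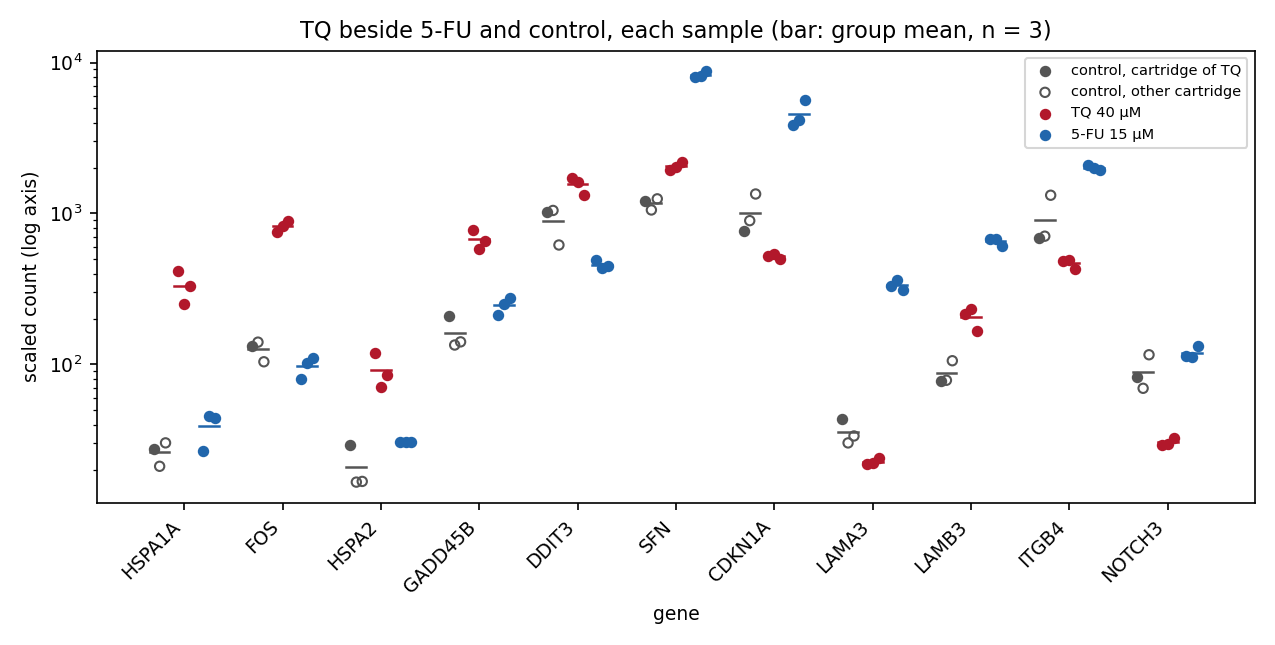
Scaled counts on a log axis of each control, TQ and 5-FU sample for 11 genes. TQ points stand above both other groups in HSPA1A, FOS, HSPA2, GADD45B and DDIT3, between them in SFN and LAMB3, and below both in CDKN1A, LAMA3, ITGB4 and NOTCH3.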

How the data were processed

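RNA of 15 HCT116 samples in 5 groups (control, TQ, 5-FU, Combi and SARB, 3 each) was measured with an nCounter panel from 50 ng per lane. The authors deposited raw counts per probe, and normalized signal values from nSolver, scaled by them to the geometric mean of the housekeeping genes. 100% of these signal values also lay within 1% of a rebuild that first subtracted the geometric mean of the negative probes and set values under 1 to 1. A further deposited table holds the authors' fold changes and p-values and was not used.

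Raw counts were fitted for all 15 samples in 5 groups with edgeR 4.0.16 (quasi-likelihood test) in R 4.3.3, with offsets from the geometric mean of 40 housekeeping genes, over 730 genes with no filter on low counts. Standard errors are the absolute log2 fold change divided by the square root of F. Per-sample depth is given with the results, and counts under 20 were found for 221 to 344 genes in a control or TQ sample. Alternatives were TMM, DESeq2 1.42.0 (own or housekeeping size factors), limma 3.58.1 on the deposited signal values as log2, housekeeping genes with a mean count of at least 100, genes with a mean count of at least 20, counts under 20 set to 20, the compared groups only, cartridge or replicate number as a block, and each sample left out. TMM with either block, and subtraction of the negative mean, were added after the data were seen. The replicate numbers do not pair the samples. The correlation of the deviations of same-numbered samples was -0.27 to 0.10 for TQ and control. Scripts were tested on simulated data.

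The samples and gene lists were chosen with earlier results of these data known, and the lists were written from general knowledge. Genes were named by rule: the 12 largest rises and falls among called genes without overlap and with a mean of at least 50 in the higher group, up to 4 called members a list and those called against its majority, up to 20 called under housekeeping scaling, TMM and cartridge block, and up to 6 a direction also called against 5-FU. Not every gene the rule allows is given. JUN, CDH1, HSPB1, HSP90B1, GADD45A, MYC, MDM2, BAX, CDC25C, CDKN2D, ITGA2, ITGB8, WNT10A, WNT2B, GSK3B, CTNNB1, TBL1XR1, PPP3CB, ERBB2, FOXO4, TGFB2, H3F3A and PROM1 lie outside it and were chosen after their values were seen. Promoters came from a RefSeq table of GRCh38.p14, in which 536 of the 730 panel genes were matched by symbol.

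Some items are not reported here.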

Additional observations from a re-analysis of the deposited data

How the results depend on the processing

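Against control, 25 genes were higher and 158 lower. The counts of higher and lower genes were 79 and 44 with TMM, 85 and 39 with DESeq2's own size factors, 13 and 26 with cartridge as a block, 21 and 5 with TMM and that block, and 81 and 37 with TMM and a replicate block. The replicate block alone gave 25 and 137, and of the genes in the text it ended 3 calls, those of MAPK8IP2, LAMA3 and TGFB2. Lower genes numbered 69 with counts under 20 set to 20, 96 by limma on the deposited values and 100 with the negative mean subtracted. With 1 sample left out, 21 to 34 genes were higher and 62 to 185 lower, the extremes for lower genes being TQ replicate 2 and control replicate 1. Against 5-FU, 23 were higher and 105 lower, with 60 and 70 under TMM, 65 and 59 under DESeq2's own size factors, 62 and 72 under TMM with cartridge block, 59 and 64 under TMM with replicate block, and 22 to 27 and 86 to 107 with 1 sample left out. The causes of these shifts were not tested. Of the 79 called genes in the text, 49 were called in every fit without 1 sample, TMM ended 33 calls and the cartridge block 47. Without TQ replicate 2, 22 lost their call, and without control replicate 3, 19. Signs turned for HSPB1 with the cartridge block (-0.023), for DUSP4 and FOXO4 with TMM and that block (0.035 and 0.090), for BAX (0.010 with TMM, 0.046 with DESeq2's own factors, 0.081 and 0.0047 with TMM and the cartridge or replicate block) and for PROM1 (0.10, 0.14, 0.12 and 0.11 in the same order). Depth limits the dim genes, whose counts lie near the negative probes.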
